A study of Mus musculus with 2 samples.

Results

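Described are 6 of the 33696 genes in the files: Crispld1 (ENSMUSG00000025776), Efemp1 (ENSMUSG00000020467), Scube1 (ENSMUSG00000016763), Egfl6 (ENSMUSG00000000402), Lhfp (ENSMUSG00000048332) and Irag2 (ENSMUSG00000030263). They were chosen by their lower summed UMI levels in CA3 or CA1 pyramidal nuclei of the library labelled Capicua (Cic) knockout, so their values in those nuclei describe the choice and test nothing. They had been grouped as secreted genes. Crispld1, Efemp1, Scube1 and Egfl6 encode secreted proteins, but Lhfp encodes a membrane protein of the tetraspan LHFPL family and Irag2 a membrane protein of the endoplasmic reticulum, so the name holds for 4 of the 6.

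Pyramidal neurons of CA3 receive the mossy fibre axons of the dentate granule cells and project to the pyramidal neurons of CA1. Secreted proteins and the matrix around these cells are among the cues that axons and synapses meet as the circuit matures. CRISPLD1 is a secreted protein of the cysteine-rich CAP superfamily. EFEMP1, also called fibulin-3, and SCUBE1 carry EGF-like repeats, the first as a matrix glycoprotein and the second as a secreted and cell-surface protein whose family takes part in the release and reception of hedgehog ligands. EGFL6 is a secreted EGF-repeat protein with an integrin-binding motif and a relative of nephronectin (Npnt). IRAG2, also known as LRMP or JAW1, binds the inositol trisphosphate receptor and modulates HCN4 channels.

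Nuclei came from the hippocampus of littermate mice at postnatal day 19 and were profiled by 10x Genomics 3′ single-nucleus RNA sequencing. The control library pooled 3 Cicflox/flox mice, and the library labelled knockout pooled 3 Emx1-Cre; Cicflox/flox mice. Each pool held 2 males and 1 female with 1 hippocampus per mouse. All 6 mice therefore carried the floxed alleles, and the groups differed by the Cre. Emx1-Cre acts in the lineage of the dorsal telencephalon, which gives rise to the excitatory neurons and to many of the astrocytes and oligodendrocytes, but not to the interneurons or microglia.

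With 1 library per genotype there is no replicate, so no test is reported and genotype cannot be told apart from library. Every interval is a 95% interval for counting error only. UMIs (counted molecules) of a gene were summed over the nuclei of a class, scaled to the class total and given as CPM. The libraries held 314453640 and 252995761 UMIs, and 21865 control and 20531 knockout-labelled nuclei were used, with a median of 9790 and 8766 UMIs per nucleus. The libraries shared 175 cell barcodes. Classes of nuclei were named from fixed marker genes and 18 of them had enough nuclei to compare. In both libraries each of the 8 CA3 markers and each of the 8 CA1 markers was higher in its class than in the other compared classes together. The classes were named from these markers, so this is no independent check of the names. Marker levels also differed between the libraries, in both directions. In CA1-like nuclei Wfs1 had 26.7 CPM in the control and 8.16 under the knockout label, and Man1a 633 and 421. Spink8 had 27.3 and 48.2 CPM there, and Mpped1 116 and 169. The part of such differences in the members' values was not tested. Cic was the gene targeted. CA3-like nuclei had 7.03 CPM of it in the control and 11.7 under the knockout label, and CA1-like nuclei had 6.61 and 12.4. Lhx6 interneuron-like nuclei had 9.37 and 9.42. Its level was thus higher, not lower, in CA3-like and CA1-like nuclei and similar in the interneurons, and the cause was not tested. Summed gene counts cannot show whether the floxed exons were read, so the label could not be checked from Cic and the library is named by its label throughout.

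Of the 6 genes, each chosen for a lower level in CA3-like or CA1-like nuclei, 4 had a promoter sequence to show. Efemp1 had almost no UMIs in CA1-like nuclei, and Egfl6 almost none in CA3-like nuclei. The promoter sequences shown are the 250 bases before the RefSeq start (GRCm38.p6). They lie at chr15:83725040-83725289 on the minus strand (Scube1), chr11:28852955-28853204 on the plus strand (Efemp1), chrX:166585717-166585966 on the minus strand (Egfl6) and chr3:53041297-53041546 on the plus strand (Lhfp). Crispld1 and Irag2 were not matched in the promoter table. Each sequence is written 5′ to 3′ on the gene's strand, with capitals for the GC box GGGCGG and the ETS-site hexamer CAGGAA, searched on both strands.
Scube1: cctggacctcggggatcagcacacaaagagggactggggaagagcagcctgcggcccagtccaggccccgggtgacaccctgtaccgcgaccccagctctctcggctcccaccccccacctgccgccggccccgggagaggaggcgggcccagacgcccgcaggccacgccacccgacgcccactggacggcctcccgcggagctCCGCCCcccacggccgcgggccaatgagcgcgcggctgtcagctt
Efemp1: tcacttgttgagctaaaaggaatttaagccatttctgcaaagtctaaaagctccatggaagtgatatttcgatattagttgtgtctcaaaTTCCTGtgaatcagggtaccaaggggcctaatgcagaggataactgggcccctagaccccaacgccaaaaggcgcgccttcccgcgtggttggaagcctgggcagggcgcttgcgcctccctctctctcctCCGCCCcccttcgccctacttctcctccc
Egfl6: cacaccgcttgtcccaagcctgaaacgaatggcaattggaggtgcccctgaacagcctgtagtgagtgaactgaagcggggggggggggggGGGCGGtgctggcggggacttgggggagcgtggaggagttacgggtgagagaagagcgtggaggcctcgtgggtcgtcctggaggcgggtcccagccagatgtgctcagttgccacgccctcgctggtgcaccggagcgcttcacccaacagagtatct
Lhfp: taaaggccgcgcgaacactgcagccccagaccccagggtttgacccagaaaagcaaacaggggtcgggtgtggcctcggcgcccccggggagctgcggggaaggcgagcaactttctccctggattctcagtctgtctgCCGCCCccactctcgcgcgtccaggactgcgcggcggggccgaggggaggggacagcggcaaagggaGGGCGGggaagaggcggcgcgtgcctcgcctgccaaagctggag
Capicua binds octamers of the kind TGAATGAA, TGAATGGA, TCAATGAA and TCAATGGA. None of these octamers, nor the other ETS-site hexamer searched, CCGGAA, was found on either strand of the 4 windows. The shorter GGAA inside these hexamers was not searched, so other ETS sites may be present. At least 1 of the octamers occurred in 3.19% of the 32851 promoter windows of this length, so most windows hold none. The hexamer CAGGAA was present in Efemp1, and in 25.7% of all windows. GGGCGG was present in all 4, with 2 matches in Lhfp and 1 in each of the others, and in 32.7% of all windows. GC content was 75.2% in Scube1, 69.6% in Lhfp, 64.8% in Egfl6 and 53.6% in Efemp1, against a median of 52.4% over all windows.

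**Figure D1:**
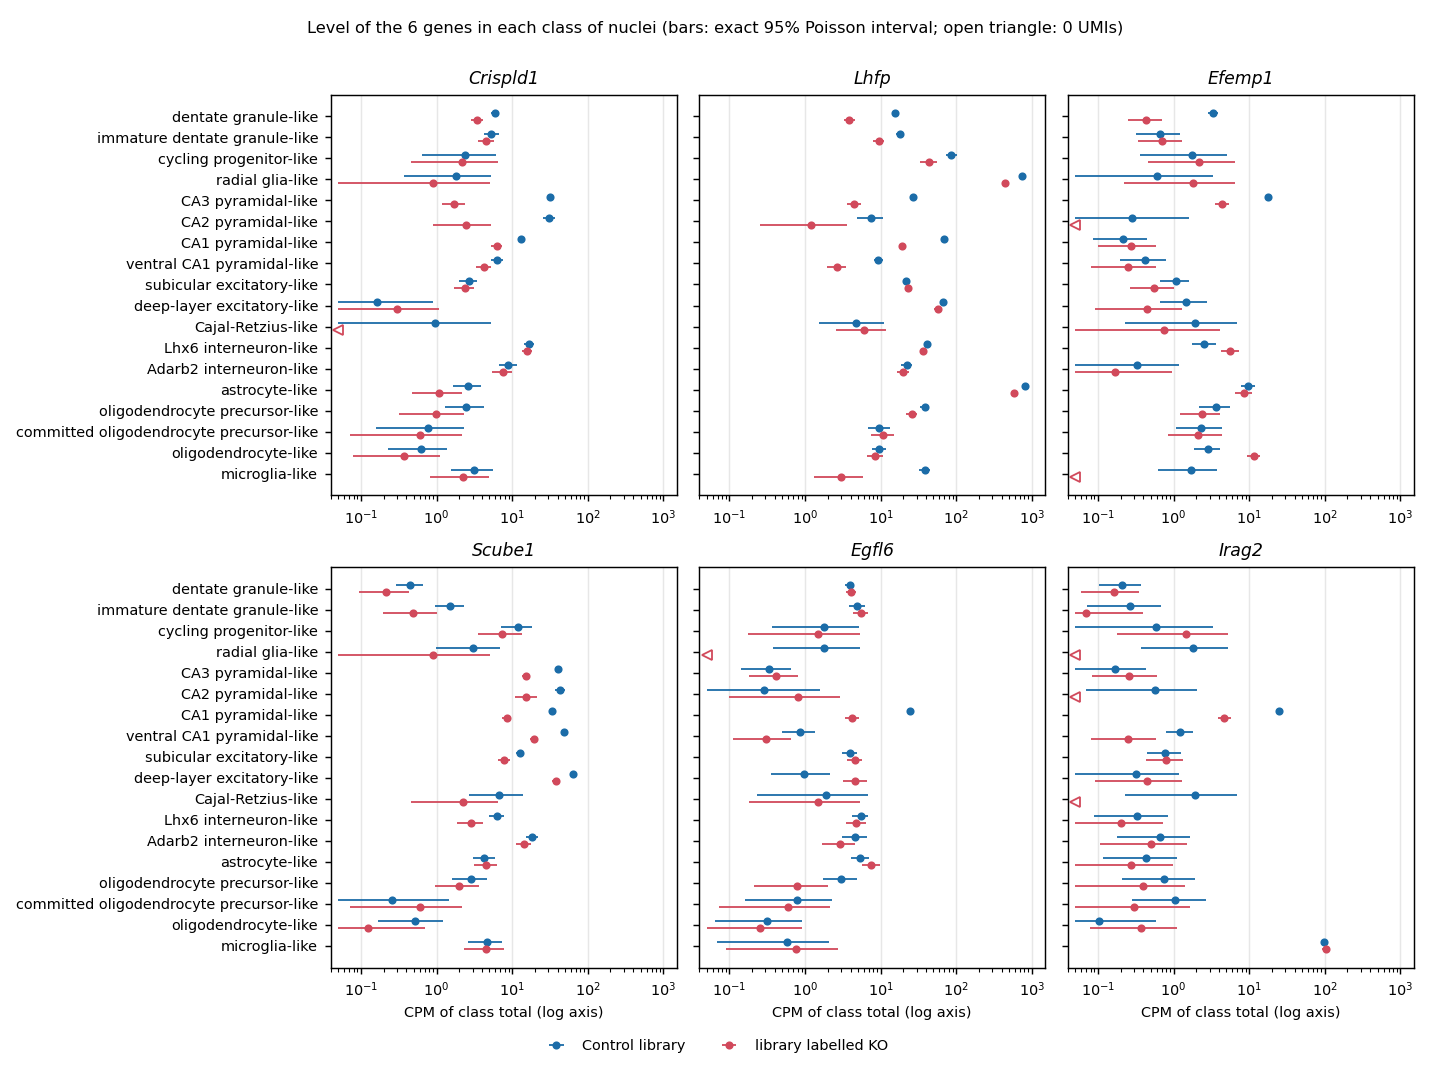
Level of each gene in 18 classes of nuclei, as CPM of the class total on a log axis, with blue points for the control library and red points for the library labelled knockout. Bars are exact 95% Poisson intervals, drawn no further than the left edge, where open triangles mark classes with 0 UMIs. Crispld1 had 31.7 CPM in control CA3-like nuclei against 1.72, while its points nearly coincide in Lhx6 interneuron-like nuclei. Irag2 was separated in CA1-like nuclei and level in microglia-like nuclei.

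Crispld1 was lower in CA3-like, CA2-like and CA1-like nuclei of the library labelled knockout. CA3-like nuclei held 758 Crispld1 UMIs in the control library, 31.7 CPM (29.5 to 34.0), and 33 in the library labelled knockout, 1.72 CPM (1.18 to 2.41), from 957 and 867 nuclei. The level was 18.2-fold lower, a log2 ratio of -4.19 (-4.76 to -3.70). CA2-like nuclei, a smaller class of 146 and 120 nuclei, held 109 and 6 UMIs, a log2 ratio of -3.56 (-5.14 to -2.50). The difference was smaller in CA1-like nuclei, with 423 UMIs (13.1 CPM) against 138 (6.29 CPM) and a log2 ratio of -1.05 (-1.34 to -0.77), which was -0.92 (54 and 22 UMIs), under 2-fold, with nuclei thinned to 2000 UMIs. In ventral CA1-like nuclei the counts were 134 and 83 and the log2 ratio -0.59. Dentate granule-like nuclei had 5.92 CPM against 3.47, a log2 ratio of -0.77 (-1.08 to -0.47).

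Outside the pyramidal classes the direction of Crispld1 varied. Lhx6 interneuron-like nuclei held 204 UMIs (16.8 CPM) and 155 UMIs (15.7 CPM), a log2 ratio of -0.09 (-0.41 to 0.21) whose interval spans 0, and astrocyte-like nuclei 24 and 8 UMIs (-1.19, -2.61 to -0.04). Higher levels were found in 2 unnamed clusters with Gad2, which encodes a GABA-synthesising enzyme, and Lamp5 among their leading genes. A cluster that also had Hapln1 there (167 and 180 nuclei) had 181 CPM against 223, a log2 ratio of 0.30 (0.12 to 0.47). A cluster that also had Ndnf and Reln there (50 and 48 nuclei) had 231 and 445 CPM, a log2 ratio of 0.94 (0.67 to 1.23). These clusters were singled out after their values were seen. Mossy-like nuclei, which send their axons to the dentate gyrus (72 and 110 nuclei), had 260 against 118 CPM. In vascular leptomeningeal-like nuclei (58 and 101) 0 Crispld1 UMIs were found in the control and 39 under the knockout label. Unnamed nuclei held 24.5% of all Crispld1 UMIs in the control and 48.6% in the other library, and CA3-like nuclei 21.1% in the control. An unnamed cluster whose best-matching markers were those of CA3 (290 and 297 nuclei) held 83 and 8 UMIs, a log2 ratio of -3.11 (-4.45 to -2.14).

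Efemp1 had its highest control level among the 18 classes in CA3-like nuclei and was lower there in the library labelled knockout. CA3-like nuclei held 422 UMIs, 17.6 CPM (16.0 to 19.4), and 84 UMIs, 4.37 CPM (3.49 to 5.41), a 4.02-fold lower level and a log2 ratio of -2.01 (-2.37 to -1.67). Astrocyte-like nuclei had 9.59 and 8.59 CPM, a log2 ratio of -0.16 (-0.65 to 0.32). Dentate granule-like nuclei held 179 against 16 UMIs at levels of 3.35 and 0.433 CPM, a log2 ratio of -2.91 (-3.79 to -2.21). CA1-like nuclei had almost none, 7 and 6 UMIs. In the other direction, oligodendrocyte-like nuclei held 27 UMIs (2.83 CPM) against 92 (11.5 CPM), a log2 ratio of 2.01 (1.39 to 2.70). Lhx6 interneuron-like nuclei held 31 against 55 UMIs, a log2 ratio of 1.12 (0.47 to 1.81).

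The higher Efemp1 level was found in 1 of the 3 oligodendrocyte-like clusters. The cluster with the myelin genes Opalin and Mobp among its leading genes (381 and 628 nuclei) held 10 against 91 UMIs, a log2 ratio of 2.55 (1.67 to 3.72). The cluster with Dock5 and Hapln2 (660 and 179 nuclei) held 13 against 0, and the smallest (108 and 104 nuclei) held 4 against 1. The libraries thus took different shares of their oligodendrocyte-like nuclei from these clusters, and the part of that in the class value was not tested.

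Scube1 was lower in all 4 pyramidal classes (CA3, CA2, CA1 and ventral CA1). CA3-like nuclei had 977 UMIs (40.9 CPM, 38.3 to 43.5) and 294 (15.3 CPM, 13.6 to 17.1), a log2 ratio of -1.42 (-1.61 to -1.23). CA2-like nuclei had 43.1 and 15.4 CPM, a log2 ratio of -1.47 (-2.04 to -0.96). CA1-like nuclei held 1083 UMIs (33.4 CPM) and 185 (8.43 CPM), a 3.96-fold lower level and a log2 ratio of -1.98 (-2.22 to -1.76). In ventral CA1-like nuclei the counts were 1040 (49.1 CPM) and 381 (19.3 CPM), a log2 ratio of -1.35 (-1.52 to -1.18). Smaller differences in the same direction were seen in subicular excitatory-like nuclei (12.6 against 7.84 CPM, log2 ratio -0.68) and in deep-layer excitatory-like nuclei (63.6 against 38.0 CPM, log2 ratio -0.74). The latter had the highest control level of Scube1 among the 18 classes.

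Scube1 was also lower in a class outside the Emx1 lineage. Lhx6 interneuron-like nuclei held 76 against 28 UMIs, a log2 ratio of -1.12 (-1.82 to -0.50), at levels of 6.25 and 2.84 CPM. Adarb2 interneuron-like nuclei held 113 against 84, a log2 ratio of -0.37 (-0.80 to 0.04), which was 0.88 in female and -1.06 in male nuclei. Mossy-like nuclei had 113 against 52.7 CPM. Immature dentate granule-like nuclei held 23 and 7 UMIs, a log2 ratio of -1.56 (-3.10 to -0.36), and astrocyte-like nuclei 40 and 33, a log2 ratio of 0.07 (-0.65 to 0.76).

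Egfl6 was concentrated in CA1-like nuclei of the control, which held 56.1% of its UMIs. There it had 803 UMIs, 24.8 CPM (23.1 to 26.6), against 93 UMIs, 4.24 CPM (3.42 to 5.19), a 5.82-fold lower level and a log2 ratio of -2.54 (-2.87 to -2.24). In subicular excitatory-like nuclei, by contrast, 81 UMIs were counted in each library, and the log2 ratio was 0.21 (-0.26 to 0.67). Dentate granule-like nuclei had 3.89 and 4.09 CPM, a log2 ratio of 0.07 (-0.24 to 0.38), and CA3-like nuclei held 8 UMIs in each library. Of the classes with few Egfl6 UMIs, ventral CA1-like nuclei held 18 against 6, a log2 ratio of -1.41 (-3.11 to -0.09), and oligodendrocyte precursor-like nuclei 16 against 4, a log2 ratio of -1.82 (-3.98 to -0.31). Deep-layer excitatory-like nuclei went the other way with 6 UMIs against 31, a log2 ratio of 2.17 (0.97 to 3.81).

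Lhfp was lower in CA3-like and CA1-like nuclei, and its highest levels among the 18 classes were in astrocyte-like and radial glia-like nuclei in both libraries. CA3-like nuclei held 651 UMIs (27.2 CPM, 25.2 to 29.4) and 86 (4.47 CPM, 3.58 to 5.53), a log2 ratio of -2.60 (-2.95 to -2.28). CA1-like nuclei held 2239 (69.1 CPM) and 426 (19.4 CPM), a log2 ratio of -1.83 (-1.98 to -1.68). Under 12 alternative settings it ran from -2.04 to -1.09, the latter with nuclei thinned to 2000 UMIs. It was also nearer 0 within a finer cluster described below. CA2-like nuclei held 26 and 3 UMIs, a log2 ratio of -2.40 (-4.97 to -0.89). Ventral CA1-like nuclei had 9.35 against 2.63 CPM, a log2 ratio of -1.82, which was -1.01 in female and -2.91 in male nuclei and -0.41 (258 and 163 UMIs) when genes that differed were left out of the clustering. Dentate granule-like nuclei had 15.5 against 3.85 CPM, 4.01-fold lower, and with 5% free RNA subtracted the log2 ratio there was -2.79 (649 and 64 UMIs). Subicular excitatory-like nuclei had 21.5 and 23.0 CPM, a log2 ratio of 0.10 (-0.10 to 0.30), but the sexes went in opposite directions, with 0.82 in female and -0.72 in male nuclei.

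The ratios in astrocyte-like and radial glia-like nuclei were nearer 0 but negative, as in several other classes outside CA3 and CA1. Immature dentate granule-like nuclei held 270 against 135 UMIs, a log2 ratio of -0.91 (-1.22 to -0.61), and cycling progenitor-like nuclei 146 against 59, a log2 ratio of -0.98 (-1.45 to -0.54). Oligodendrocyte precursor-like nuclei had a log2 ratio of -0.58 (-0.91 to -0.26) and deep-layer excitatory-like nuclei -0.23 (-0.44 to -0.03). Astrocyte-like nuclei, which held 43.9% of the control UMIs of Lhfp, had 810 CPM (792 to 828) against 586 (569 to 604), a log2 ratio of -0.47 (-0.52 to -0.41). Radial glia-like nuclei had 732 against 441 CPM, a log2 ratio of -0.73. Lhx6 interneuron-like nuclei had 41.7 and 36.6 CPM, a log2 ratio of -0.19. In microglia-like nuclei the counts were 133 and 8, a log2 ratio of -3.58, but 125 of the 133 came from a cluster of 28 control nuclei with no counterpart in the other library. That cluster had 9364 CPM of astrocyte markers, against 636 CPM in the largest microglia-like cluster of the control. Without it, microglia-like nuclei held 8 UMIs of Lhfp in each library.

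Irag2 was found mainly in CA1-like and microglia-like nuclei. It was lower in the first in the library labelled knockout and at a similar level in the second. CA1-like nuclei held 814 UMIs, 25.1 CPM (23.4 to 26.9), against 103 UMIs, 4.70 CPM (3.83 to 5.69), a 5.33-fold lower level and a log2 ratio of -2.41 (-2.73 to -2.12). Within the cluster that held 1294 of the CA1-like nuclei labelled knockout at clustering resolution 2, it was 0.13 (-0.43 to 0.74). Microglia-like nuclei held 343 UMIs (98.5 CPM) and 274 (103 CPM), a log2 ratio of 0.07 (-0.17 to 0.30). Ventral CA1-like nuclei held 26 and 5 UMIs at levels under 2 CPM. CA1-like nuclei gave 62.3% of all Irag2 UMIs in the control and 22.5% under the knockout label, where microglia-like nuclei gave 60.0%.

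**Figure D2:**
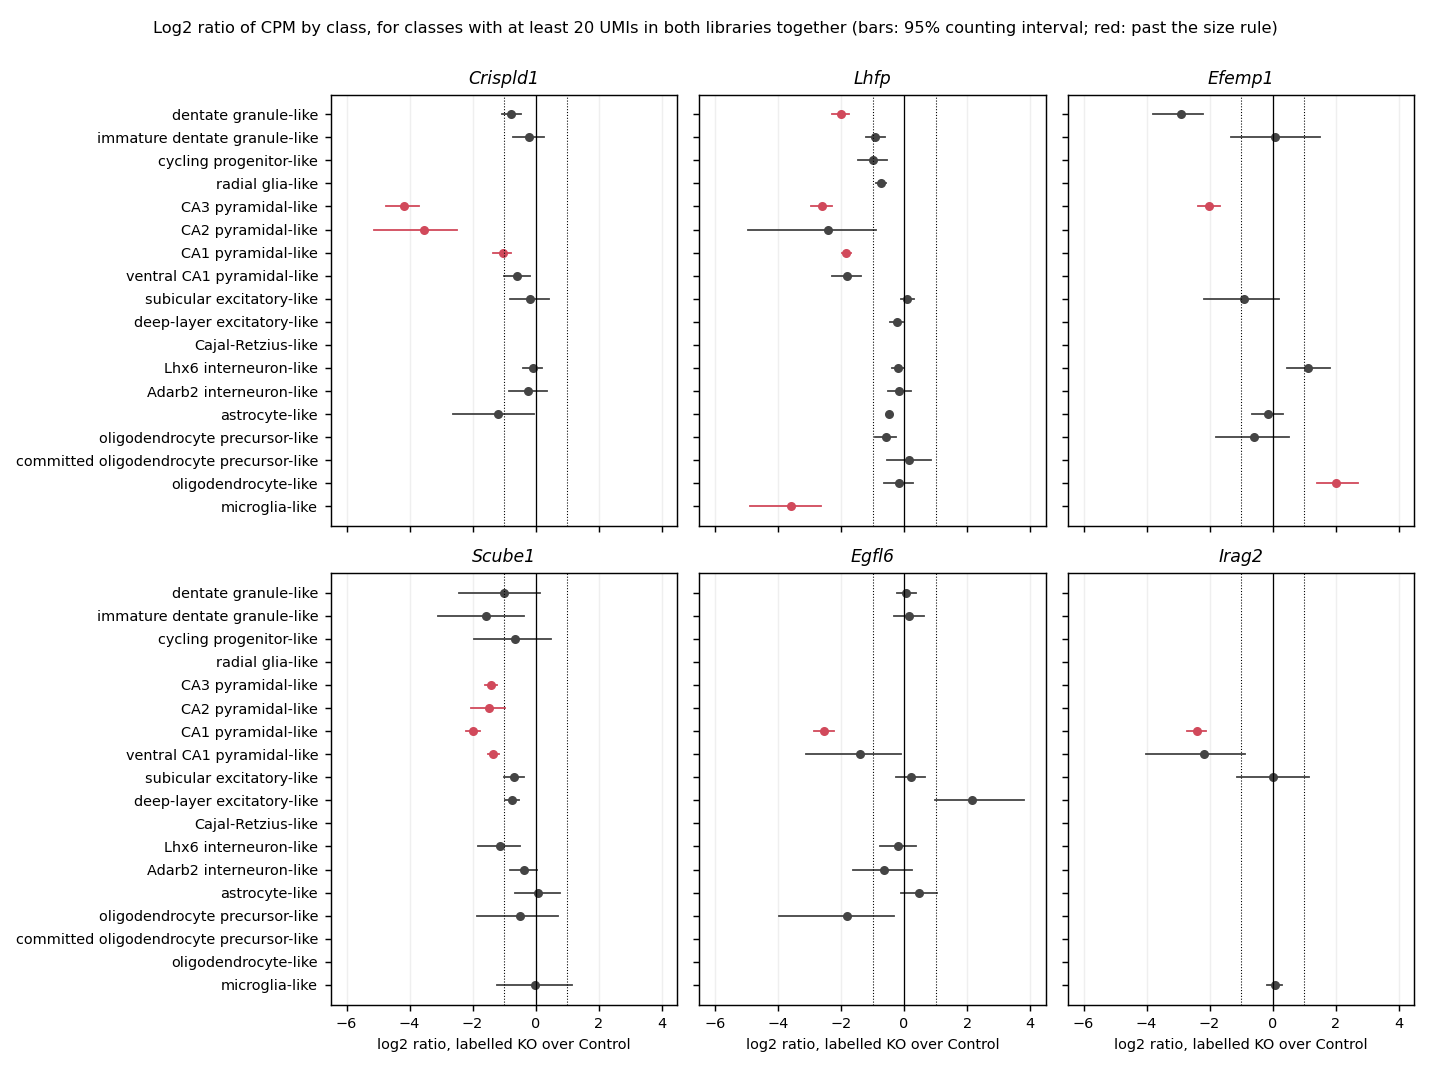
Log2 ratio of CPM, labelled knockout over control, for each gene and each class with at least 20 UMIs in the libraries together. Bars are 95% counting intervals, dotted lines mark a 2-fold difference, and red points differ at least 2-fold with 50 UMIs and 10 CPM or more in one library. Crispld1 reached -4.19 in CA3-like nuclei, and Efemp1 in oligodendrocyte-like nuclei is a point past 1 on the positive side.

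To set the members beside all genes, a gene was counted as lower or higher when its CPM differed at least 2-fold and the library with more of it held 50 UMIs and 10 CPM or more. In CA3-like nuclei 38 of 8031 genes meeting those minimums were lower, 0.473%, and the members were 4 of the 4 that met them. In CA1-like nuclei 86 of 8144 were lower, 1.06%, and the members were 5 of 5, or 4 at 2-fold with nuclei thinned to 2000 UMIs, where Crispld1 had -0.92. The members were chosen on those contrasts, so nothing is read from these counts.

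Among the other classes, 1 or 2 members met the minimums in 14. Scube1 was lower in ventral CA1-like nuclei, 1 of 1 member against 0.574% of genes, and Crispld1 and Scube1 were lower in CA2-like nuclei, 2 of 2 against 1.03%. With nuclei thinned to 2000 UMIs, which left 7 and 3 Scube1 UMIs there, its log2 ratio was -0.82, under 2-fold. The CA2 ratio of Crispld1 was -2.15 with thinned nuclei (13 and 2 UMIs) and -2.29 with male nuclei only (31 and 4). When genes that differed were left out of the clustering, no cluster was named CA2-like, so that setting gave no value. Lhfp was lower in dentate granule-like nuclei, 1 of 1 against 1.09%, and in microglia-like nuclei, 1 of 2 against 1.74%, where the count rests on the control-only cluster. None that met the minimums was counted as lower in subicular excitatory-like (0.371% of genes) or deep-layer excitatory-like nuclei (0.422%). The same held for Lhx6 (0.0229%) and Adarb2 interneuron-like nuclei (0.136%), and for immature dentate granule-like (0.0214%), cycling progenitor-like (0.197%) and radial glia-like nuclei (0.334%). It also held for astrocyte-like (0.106%), oligodendrocyte precursor-like (0.0531%) and oligodendrocyte-like nuclei (1.13%). The single member counted as higher in any class was Efemp1 in oligodendrocyte-like nuclei, where 2.19% of genes were higher.

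Ordered by their ratio among the genes counted as lower in CA3-like nuclei, Crispld1 was number 1, Lhfp 2, Efemp1 6 and Scube1 7. Gm16070 (log2 ratio -2.26) and Cpne5 (-2.11), a copine, followed Lhfp, and Cpne8 (-1.42) and Gm12536 (-1.40) followed Scube1. In CA1-like nuclei Egfl6 was number 10, Irag2 13, Scube1 21, Lhfp 24 and Crispld1 77 of the 86. Gm17171 (-2.73) and Etl4 (-2.60) stood just above Egfl6, and Gfra2 (-2.49), a receptor for GDNF-family ligands, and Tmem144 (-2.44) just below it. Itga7 (-2.39), an integrin subunit, and Htr1f (-2.32), a serotonin receptor, followed Irag2. Wls (-2.05), which carries Wnt proteins to the cell surface, stood just above Scube1 and the collagen gene Col11a1 (-1.88) just below it. Ptprz1 (-1.05) and Rspo3 (-1.05), a secreted enhancer of Wnt signalling, came just below Crispld1.

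The share of single nuclei with a UMI was lower in CA3-like and CA1-like nuclei. It comes from the same UMIs by which the genes were chosen, so it describes that choice and tests nothing. Crispld1 was found with at least 1 UMI in 36.1% of control CA3-like nuclei (33.0 to 39.2, exact binomial interval) and in 3.11% of those labelled knockout. For Egfl6 in CA1-like nuclei the shares were 25.5% and 4.70%, and for Irag2 28.2% and 6.42%. Lhfp was found in 47.4% and 17.8% of CA1-like nuclei. The median depth was 24388 and 21401 UMIs in CA3-like and 18023 and 15951 in CA1-like nuclei. With every nucleus thinned to 2000 UMIs, which left out 0 nuclei of these classes, the CA3 shares of Crispld1 were 5.43% and 0.231%, and the CA1 shares of Irag2 were 5.37% and 0.597%. In oligodendrocyte-like nuclei, which had little of either gene at a median of 7997 and 8380 UMIs, the Crispld1 share was 0.522% and 0.329%, and Irag2 was found in 0.0870% and 0.329% of them.

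**Figure D3:**
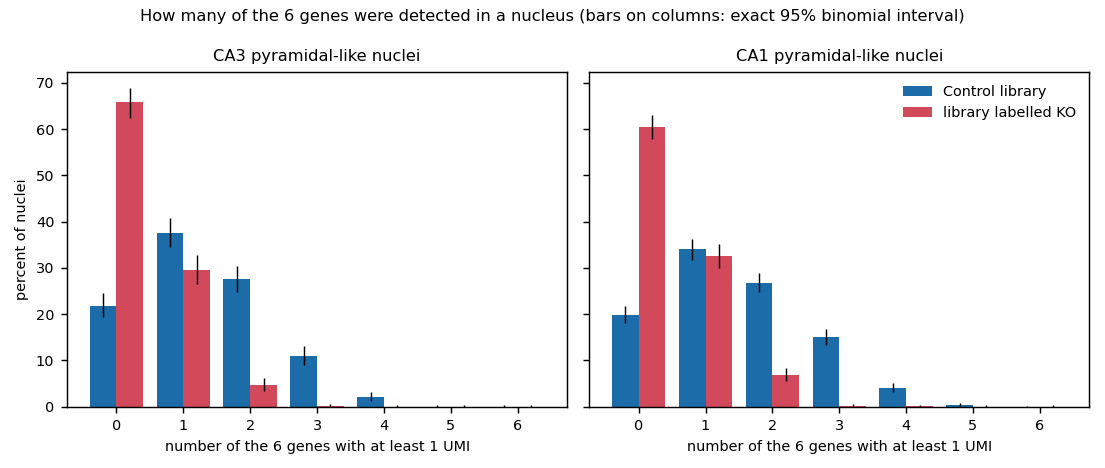
Percent of CA3-like (left) and CA1-like (right) nuclei in which 0 to 6 of the genes had at least 1 UMI, with exact 95% binomial intervals. In CA3-like nuclei 21.8% of control nuclei had none of the 6, against 65.7% of the nuclei with the knockout label. The genes were chosen by their lower sums in CA3 or CA1 nuclei, so the difference describes that choice.

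More nuclei lacked all of the 6 genes in the library labelled knockout. The genes were chosen by their lower sums in CA3 or CA1 nuclei, so this follows from the choice and tests nothing. In CA3-like nuclei 21.8% of control and 65.7% of knockout-labelled nuclei had no UMI of any of the 6 genes, and the mean number of genes found was 1.34 against 0.391. In CA1-like nuclei the shares with none were 19.8% and 60.4%, and the means 1.51 and 0.469. The number of genes found also depends on depth, which was lower in the library labelled knockout.

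**Figure D4:**
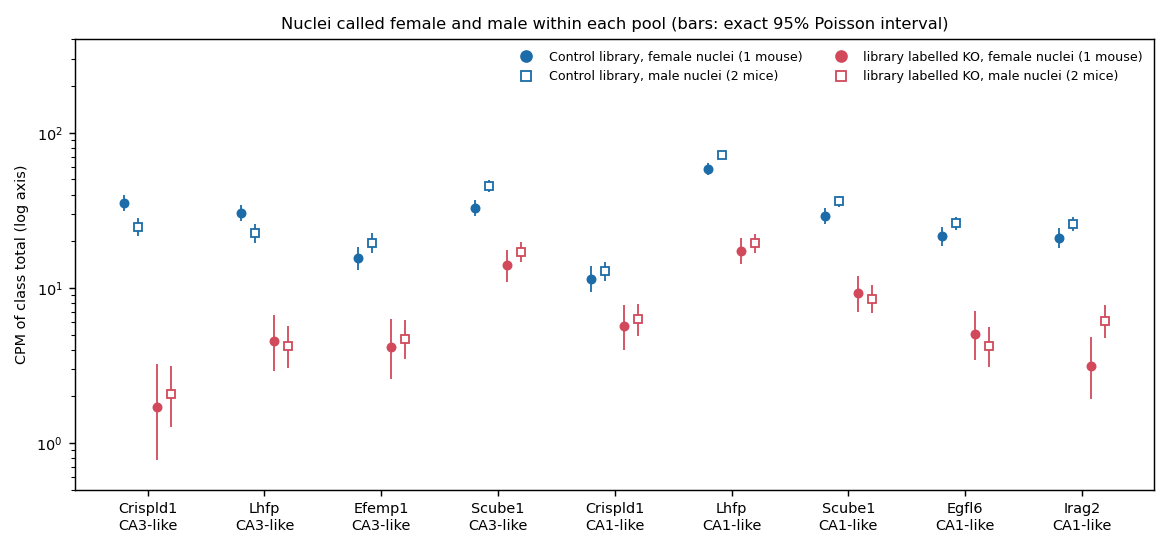
Level of each gene in CA3-like or CA1-like nuclei by the sex called from sex-linked transcripts, as CPM on a log axis. Filled circles are female nuclei (1 mouse per library), open squares male nuclei (2 mice), and bars are exact 95% Poisson intervals. In each of the 9 comparisons both knockout-labelled points lie below both control points.

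Nuclei of the 1 female and the 2 males in each pool were separated by sex-linked transcripts and gave the same direction in each of the 9 comparisons. Crispld1 in CA3-like nuclei had a log2 ratio of -4.30 in female and -3.56 in male nuclei. Lhfp in CA3-like nuclei had -2.72 and -2.40, and Scube1 in CA1-like nuclei -1.65 and -2.08. Egfl6 had -2.09 and -2.62 in CA1-like nuclei, and Irag2 -2.72 and -2.07. Irag2 in microglia-like nuclei had -0.01 and 0.00. Efemp1 in oligodendrocyte-like nuclei was higher in both, with 2.33 and 1.27. These are checks inside the pools, not replicates. The members were chosen on sums that include these nuclei, so the shared direction in CA3-like and CA1-like nuclei tests nothing.

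At a finer clustering the CA1-like nuclei of the libraries fell mostly into different clusters. With clustering resolution 2, a cluster of 1286 control and 46 knockout-labelled nuclei held 779 of the control UMIs of Irag2 and 726 of those of Egfl6. A cluster of 425 control and 1294 knockout-labelled nuclei gave an Irag2 log2 ratio of 0.13 (-0.43 to 0.74), from 35 and 96 UMIs, and an Egfl6 log2 ratio of -1.19 (-1.66 to -0.71). Scube1 had -2.38 there and Lhfp -0.78. When every gene counted as lower or higher in any class was left out of the clustering, CA1-like nuclei formed a single cluster of 1664 and 1436 nuclei, in which Irag2 had a log2 ratio of -2.58 (-2.89 to -2.28), Egfl6 -2.67 and Lhfp -1.96. CA3-like nuclei formed a cluster of 1360 and 1260, in which Crispld1 had -3.98 (-4.43 to -3.57) and Efemp1 -2.04. In the main clustering, dentate granule-like nuclei also came mostly from different clusters, 3464 control and 150 knockout-labelled nuclei in one and 880 and 3118 in the other. Lhfp had log2 ratios of -2.27 and -0.65 within them, and Efemp1 -0.80 and -3.10.

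Markers of other cell types were summed in the CA classes. Over 8 marker lists the log2 ratio of the sum lay between -0.35 and 0.42 in CA3-like and between -0.18 and 0.59 in CA1-like nuclei. In CA3-like nuclei the 8 astrocyte markers summed to 407 and 370 CPM, and none was at 0 in either library. In CA1-like nuclei they summed to 96.4 and 85.1 CPM. The 8 dentate granule markers were at 44.1 CPM in control CA1-like nuclei and 66.4 in the library labelled knockout, with 5 of 8 higher. The part of these differences in the members' values was not tested.

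Crispld1 overlaps the antisense genes Gm16070 and Gm28153 on the opposite strand in GENCODE vM21. Strand use in the counting is not given in the sources used here, and the part of the overlap in these values was not tested. Gm16070 had 403 against 67 UMIs in CA3-like nuclei (log2 ratio -2.26) and 296 against 196 in CA1-like nuclei (-0.03). Gm28153 had 215 against 57 in CA3-like nuclei (-1.59) and 230 against 149 in CA1-like nuclei (-0.06). Irag2 overlaps Casc1, which had 47 and 32 UMIs in CA1-like nuclei, and Lhfp overlaps Gm42901 and Gm43803, which had 6 and 11 in control CA1-like nuclei. Efemp1, Scube1 and Egfl6 overlap no other gene of that annotation.

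None of 9 close relatives of the members was counted as lower in CA3-like nuclei (0.473% of all genes meeting the minimums) or CA1-like nuclei (1.06%). Only Lhfpl3 and Lhfpl4 met the minimums in CA3-like nuclei, and these and Npnt in CA1-like nuclei, too few for a count of 0 to differ from those shares. Scube2 had 8.11 and 7.23 CPM in CA3-like nuclei (log2 ratio -0.16), and Scube3 had 63 and 48 UMIs (-0.07). Lhfpl3, a tetraspan relative of Lhfp, had 22.8 and 19.6 CPM in CA3-like nuclei and 24.5 and 19.4 in CA1-like nuclei. Lhfpl4, which takes part in GABA receptor clustering, had 25.4 and 25.3 CPM in CA1-like nuclei, and Lhfpl2 209 and 173 UMIs in CA3-like nuclei. Efemp2, the gene of fibulin-4, had 45 and 68 UMIs in CA3-like nuclei. Crispld2 and Irag1 had at most 9 UMIs in either library in these classes. Npnt, the relative of Egfl6, was higher in CA1-like nuclei, with 69 against 221 UMIs and a log2 ratio of 2.23 (1.85 to 2.65), opposite in direction to Egfl6.

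Of 6 lists of related genes, none held a gene counted as lower in CA3-like nuclei, where 0.473% of genes meeting the minimums were, or in CA1-like nuclei, where 1.06% were. At most 6 genes of any list met the minimums in either class, so at those shares counts of 0 say nothing particular about the lists. The one gene higher in CA3-like nuclei, where 1.34% of genes meeting the minimums were, was Timp3, an inhibitor of matrix metalloproteinases in the fibulin and elastic fibre list, with 7.86 against 22.9 CPM (log2 ratio 1.54). In CA1-like nuclei, where 3.2% of genes were higher, 3 were: Timp3 (1.23), Npnt (2.23) and Cdon (1.03), a hedgehog co-receptor. Median log2 ratios in CA3-like nuclei were 0.12 for the fibulin and elastic fibre list (14 of 20 genes with 20 or more UMIs) and 0.12 for SCUBE and hedgehog genes (15 of 17). They were 0.05 for the CAP superfamily (3 of 12), -0.11 for EGF-repeat relatives and integrins (11 of 16), -0.15 for LHFPL genes (5 of 6) and -0.12 for IRAG, inositol trisphosphate receptor and HCN genes (7 of 10), beside 0.07 over 16067 genes. In CA1-like nuclei the same medians were 0.09, 0.35, 0.23, 0.09, -0.01 and -0.17, beside 0.09 over 16269 genes. In ventral CA1-like nuclei, where 2.27% of genes were higher, Timp3 (1.30) and Npnt (1.74) were higher too. The matrix gene Fbln2 was lower there, where 0.574% of genes were, with 562 against 232 UMIs and a log2 ratio of -1.17 (-1.40 to -0.95). At levels too low to be counted, Fbln2 had -2.11 in CA1-like nuclei (111 and 17 UMIs) and -1.77 in dentate granule-like nuclei (66 and 13). In Lhx6 interneuron-like nuclei it had 0.54 (49 and 58 UMIs). In dentate granule-like nuclei 4 genes of the fibulin and elastic fibre list met the minimums, of which 0 were lower and 2 higher. Over all genes meeting the minimums there, 1.09% were lower and 2.27% higher. The median log2 ratio of the list there was 0.47, beside 0.02 over 17798 genes.

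Genes with the most similar level across the 18 control classes were found by Pearson correlation of log2(CPM + 1). Points share the library and depth, and no p is given. For Crispld1 they were Gm16070 (r = 0.873), Gm48006 (0.871) and 4930547E14Rik (0.866), and for Scube1 Khdrbs3 (0.913), which encodes an RNA-binding protein, Slc9a4 (0.885) and Gm49678 (0.872). For Irag2 they were Actr2 (0.912), an actin-nucleating subunit, Nrip1 (0.881) and Slc16a6 (0.870), each highest in microglia-like nuclei. For Lhfp they were Ccdc80 (0.909), Nwd1 (0.903) and Gm20743 (0.888). The highest values for Efemp1 were 0.614 (Eno1), 0.606 (A730049H05Rik) and 0.598 (Rasl11a), and for Egfl6 0.717 (Zfp938), 0.692 (Gm28175) and 0.673 (Mrps9). Of these 18 genes, not all of which met the minimums, Gm16070 was counted as lower in CA3-like nuclei, where 0.473% of genes were. Slc9a4 was counted as higher in CA1-like nuclei (8.74 against 18.6 CPM), where 3.2% of genes were. Gm16070 overlaps Crispld1 on the opposite strand, and the part of the overlap in their likeness was not tested.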

How the data were processed

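Gene by nucleus UMI counts were deposited by the authors as unnormalized counts. They were made with Cell Ranger 8.0.1 on mm39, per the submitters' processing notes. Counting of intronic reads and strand is not given in the sources used here. Nuclei with at least 500 genes and at most 5% mitochondrial UMIs were kept, and doublets called by Scrublet (12.7% and 10.9%) were left out. Clusters were made with scanpy 1.11.5 and leidenalg 0.10.2 from 3000 variable genes, 30 components and 15 neighbours at resolution 1, with no batch correction, and with the 6 genes left out. A cluster took the name of the fixed marker set with the highest mean log2 fold, "-like", if at least 3 markers were raised, the mean fold was at least 1 and no other set led its top genes. That minimum was set after the clusters were seen and kept 1.27% of control and 2.13% of knockout-labelled nuclei unnamed. 6.86% and 7.88% of nuclei were unnamed in all. UMIs were summed over each class, and classes of 100 or more nuclei per library were compared. Log2 ratios have 0.5 UMI added to each sum, with exact conditional binomial intervals. CPM has Poisson and shares have Clopper-Pearson intervals. The count of genes lower or higher was tested on simulated data for CA3-like nuclei (33696 genes, 200 changed), where 100% of the 179 changed genes that met the minimums were recovered and 0 of 7715 unchanged genes were called. The simulated counts held counting error only, with no variation between mice or libraries, and every planted change lay past the 2-fold cut. The outcome therefore checks the counting alone and says nothing of false calls between unreplicated pools.

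Genes named are the 6 members, the 3 most similar genes to each, close relatives, Cic, list members counted as lower or higher in CA3-like or CA1-like nuclei, and neighbours of the members in the order of the ratio, of which 1 is not reported here. Outside this rule, genes that overlap a member in the annotation and leading genes that mark a cluster are named. The CA1 markers named were chosen after their values were seen. So was Fbln2, as the list member counted as lower in ventral CA1-like nuclei. The members and lists were chosen with earlier results of these data known. Promoter sequences are from RefSeq (GRCm38.p6), and gene overlaps from GENCODE vM21. These builds differ from that of the files, so coordinates are given for the promoters alone.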

Additional observations from a re-analysis of the deposited data

Results flagged for a closer look

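Efemp1 had opposite directions in 2 classes: the log2 ratio was 2.01 in oligodendrocyte-like nuclei and -2.01 in CA3-like nuclei. Both were at least 2-fold with the minimum counts, and the first rests on 1 of 3 clusters (10 against 91 UMIs). With 1 library per genotype the difference between the classes was not tested.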

How the results depend on the processing

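Each of 9 log2 ratios (Crispld1, Lhfp and Scube1 in CA3-like and CA1-like nuclei, Efemp1 in CA3-like, Egfl6 and Irag2 in CA1-like) was recomputed under 12 alternatives. The members were chosen on these contrasts, so a shared direction across the alternatives is no test of it. All 108 values were negative and 107 were at least 2-fold lower, the exception being Crispld1 in CA1-like nuclei with thinned nuclei (-0.92). 92 stayed within the counting interval and 16 left it. With male nuclei only, Crispld1 in CA3 was -3.56 and Irag2 -2.07; with female nuclei only, Scube1 was -1.22 in CA3 and -1.65 in CA1, and Egfl6 -2.09. Thinning to 2000 UMIs gave Lhfp -3.26 in CA3 and -1.09 in CA1, Efemp1 -1.44, Scube1 -1.53 in CA1, Egfl6 -3.25 and Irag2 -3.21. Lhfp in CA3 was -2.21 with doublets kept and -3.32 with 5% free RNA subtracted, and -2.04 in CA1 as UMIs per nucleus, a scaling that shifts the median CA1 ratio by -0.21. Scube1 was -1.19 in CA3 without changed genes in the clustering and -1.66 in CA1 at resolution 2. The cause of each was not tested. With a minimum of 20 UMIs and none on CPM, 205 genes were lower and 379 higher in CA3-like nuclei (38 and 108 before), and 373 and 658 in CA1-like nuclei (86 and 261).

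Values chosen after seeing the data turned the direction of Lhfp, Efemp1 and Irag2. Without the control-only cluster Lhfp in microglia-like nuclei was 0.33, Efemp1 was -2.63 and -1.44 within 2 of the 3 oligodendrocyte-like clusters, and Irag2 was 0.13 within 1 CA1-like cluster at resolution 2, with an interval that spans 0. Lhfp in microglia-like nuclei was -1.06 with doublets kept and -5.00 with 5% free RNA subtracted, which also gave -2.79 in dentate granule-like nuclei. No paired analysis was possible because each genotype has 1 pooled library. Taking both libraries together, the 3 genes most like each member kept 2 for Crispld1, Lhfp and Irag2, 1 for Scube1 and 0 for Efemp1 and Egfl6. Depth limits genes of few UMIs: the interval of Lhfp in CA2-like nuclei, from 26 and 3 UMIs, runs from -4.97 to -0.89.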

Other observations

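Deep-layer excitatory-like nuclei had more Egfl6 in the library labelled knockout, 4.63 against 0.969 CPM. The counts were 6 and 31 UMIs, and the log2 ratio was 2.40 in female and 2.23 in male nuclei, from 2 control UMIs in each sex. Mural-like nuclei, of which there were 39 and 40, had the highest Lhfp level of any named class, with 204 UMIs against 111. Vascular leptomeningeal-like nuclei held 23 and 58 Efemp1 UMIs, 96.7 and 131 CPM.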
